A study of Sus scrofa with 15 samples.

Results

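The mitochondrial genome is represented in the gene table by 37 genes of 30476, chosen here as the rows whose Ensembl identifiers run from ENSSSCG00000018060 to ENSSSCG00000018096. Of these, 13 carry the symbols of the mitochondrial protein genes and 24 carry no symbol. The RefSeq annotation of the pig mitochondrial genome (Sscrofa11.1) likewise holds 37 genes, 13 for proteins, 2 for ribosomal RNAs and 22 for transfer RNAs, so the 24 genes without a symbol equal the RNA genes in number. Those 24 genes are not named individually here, although the identifiers of the protein genes rise with their positions, from ND1 (start 3922) to CYTB (start 15342). The exceptions are ENSSSCG00000018062 and ENSSSCG00000018096, which the authors list as MT-TV and MT-TP, the transfer RNAs for valine and proline. Of the 37 genes, 32 had enough reads to be tested, namely all 13 protein genes and 19 of the others. The remaining 5 had at most 10 reads in any library (ENSSSCG00000018060, ENSSSCG00000018066, ENSSSCG00000018077, ENSSSCG00000018085 and ENSSSCG00000018088).

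RNA came from the testes of 15 male Dutch Landrace Duroc piglets killed on postnatal day 21, in 5 diet groups of 3 piglets. All piglets suckled first, and the test diets ran from day 2. Sow piglets received sow milk, Milk piglets a cow's milk formula and Soy piglets a soy formula. M + E2 piglets received the cow's milk formula with 17-beta-estradiol, for which the labels give a serum target of 15 to 30 pmol/L, and M + G piglets the same formula with genistein at 84 mg/L. The serum estradiol that the study measured in M + E2 was far above that target and above that of every other group. In Sow and Soy, 1 library each carries no number in the table and is called unnumbered here. The study left out Sow 2, and the tests below do the same, so that Sow has 2 libraries in every test, while levels are given for all 15. Each library held 6097552 to 9488579 reads on genes. Among markers of the labelled tissue, 5 Leydig cell genes summed to 10415 to 24803 CPM (reads per 1000000, on TMM library sizes) and 7 Sertoli cell genes to 1251 to 3039 CPM, while 3 T cell genes summed to at most 17.5 CPM.

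The mitochondrial genome is a small circular DNA, present in many copies per cell and transcribed inside the organelle. Long transcripts of each strand are cut at transfer RNAs into messenger, ribosomal and transfer RNAs. Its proteins are core subunits of the respiratory chain and of ATP synthase, and all other subunits are encoded in the nucleus and imported. In the testis, Leydig cells begin steroid synthesis in the mitochondrion, where CYP11A1 cleaves the side chain of cholesterol.

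The 13 protein genes took 4.36% to 9.65% of all reads on genes. Their share was 7.32% in Sow unnumbered, 7.13% in Sow 2 and 7.31% in Sow 3. It was 7.74%, 4.49% and 6.26% in Milk 1 to 3, and 8.18%, 9.65% and 6.72% in Soy unnumbered, Soy 2 and Soy 3. It was 5.41%, 4.48% and 4.36% in M + E2 1 to 3, and 7.63%, 5.05% and 5.65% in M + G 1 to 3. The Sow libraries were close together, the Soy and Sow libraries were all above the M + E2 libraries, and Milk and M + G were spread widely, with Milk 1 and M + G 1 above all Sow libraries. The 24 genes without a symbol took 1.74% to 2.02% of reads in Sow, 1.01% to 1.58% in Soy, 0.978% to 1.55% in Milk, 0.821% to 1.204% in M + G and 0.862% to 0.984% in M + E2. After TMM scaling, the summed CPM of the protein genes was 82814 ± 9527 in Sow, 81981 ± 15937 in Soy, 63249 ± 19711 in Milk, 59588 ± 14322 in M + G and 42591 ± 4542 in M + E2 (SD, n = 3 each). The M + E2 mean was 51.4% of the Sow mean, or 65.5% without TMM scaling, whose factors were 1.09 to 1.14 in M + E2 and 0.762 to 0.957 in Sow. In RNA of whole testis, fewer cells of a type and less RNA per cell cannot be told apart.

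**Figure D1:**
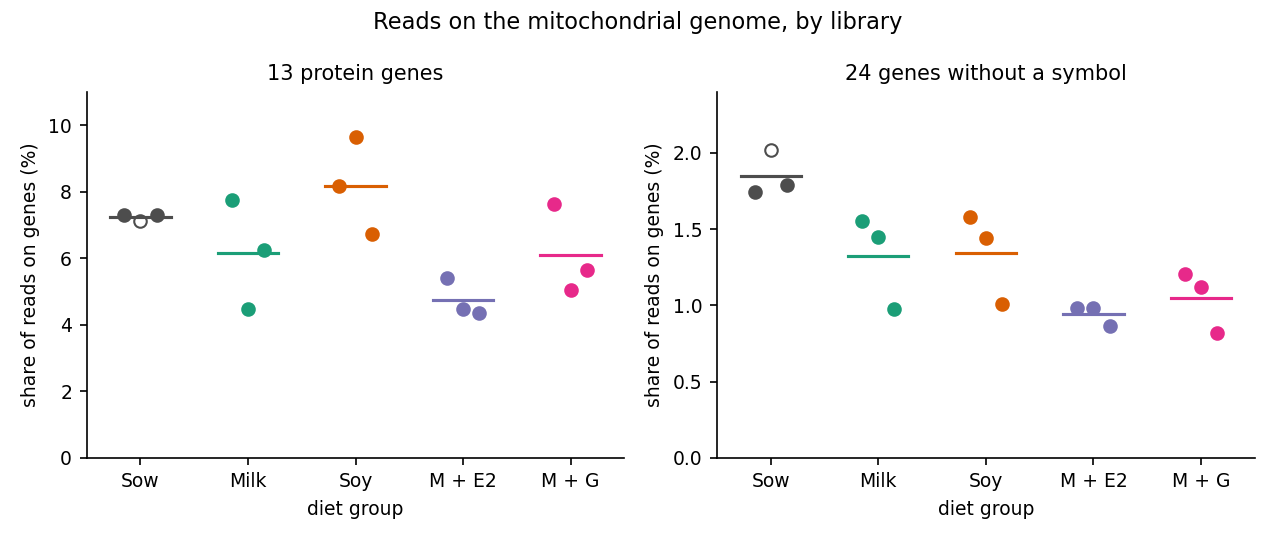
Share of all reads on genes (%, vertical axis) taken by the 13 mitochondrial protein genes (left) and by the 24 mitochondrial genes without a symbol (right), in each library by diet group. Points are libraries, the open point is Sow 2, and lines are means of 3 libraries. Protein gene shares in M + E2 (4.36% to 5.41%) lie below every Sow and Soy library.

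Per length, COX1 and COX3 were the highest of the protein genes. Both encode core subunits of cytochrome c oxidase (complex IV), and COX1 had a mean over the 15 libraries of 13481 CPM per kb and COX3 of 13423. COX1 was above COX3 in 8 of 15 libraries, so their order is not settled by these data. ATP6, a subunit of the proton channel of ATP synthase (complex V), followed with 9380 CPM per kb, then COX2, the complex IV subunit that takes electrons from cytochrome c, with 7609, and CYTB, the cytochrome b of complex III, with 4906. Each of these was above the next in 15 of 15 libraries. The complex I genes (ND1, ND2, ND3, ND4, ND4L, ND5 and ND6), whose products form the membrane arm of NADH dehydrogenase, lay between 3949 (ND1) and 1846 CPM per kb (ND6). Among them the neighbours ND1 and ND3, and ND4L and ND5, kept their order in 9 of 15 libraries. ATP8, the small second mitochondrial subunit of ATP synthase, was lowest in every library, with a mean of 1054 CPM per kb.

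The order was similar in every diet, and no gene moved by more than 2 ranks between diets. COX3 was first and COX1 second in Sow, Milk and Soy, and COX1 first in M + E2 and M + G. COX1 took 27.9% to 35.2% of the reads on the protein genes over the 15 libraries, and ATP6 9.39% to 10.1%. Lengths are those of RefSeq, and whether the mitochondrial sequence used by the authors was the same is not given in the sources used here. Some genes share bases there: ATP8 (mitochondrial positions 8959 to 9162) overlaps ATP6 (9120 to 9800) by 43 bases, ND4L overlaps ND4 by 7 bases and ND5 overlaps ND6 by 17 bases. How reads in these overlaps were counted, and whether strand was used, is not given in the sources used here, and values of ATP8, with 204 bases, and of ND6 are uncertain to that extent.

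**Figure D2:**
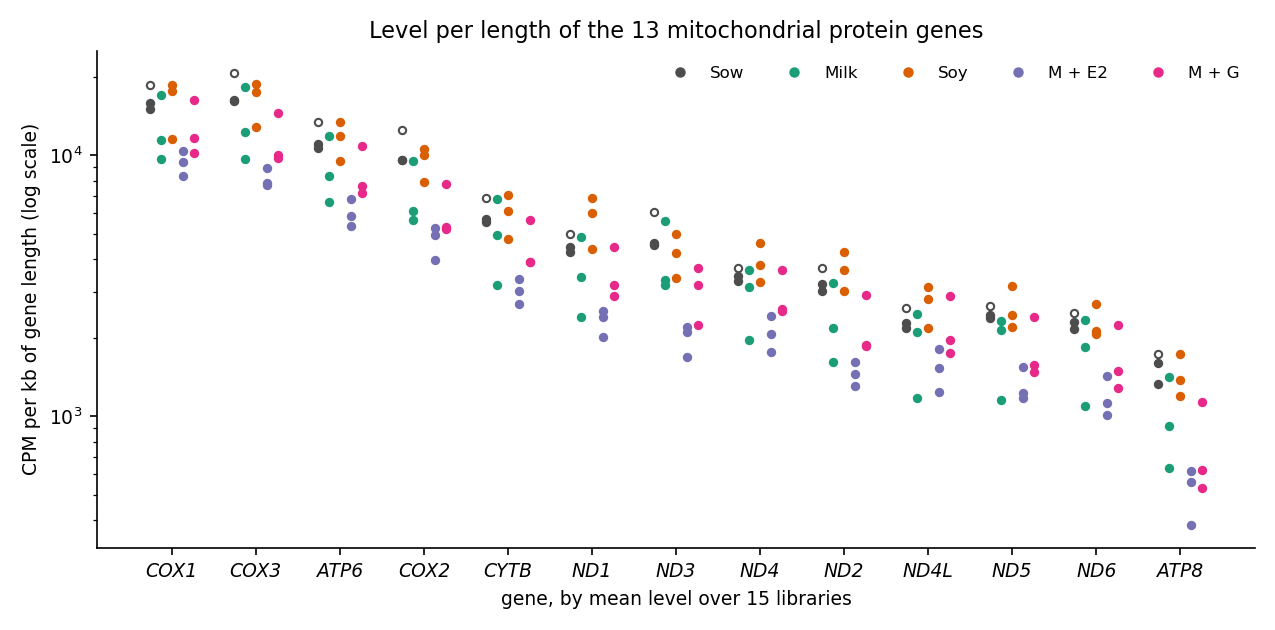
Level of each mitochondrial protein gene per kb of RefSeq length (CPM per kb, log axis) in each of the 15 libraries, coloured by diet group, with Sow 2 open. Genes are ordered by their mean, from COX1 (13481 CPM per kb) to ATP8 (1054).

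The comparison of M + E2 with Sow asks how estradiol added to formula, together with the change from sow milk to formula, altered testis RNA. All 13 protein genes had lower estimates in M + E2, with a median log2 fold change of −0.97 and a range from −1.56 (ATP8) to −0.61 (ND4L), against a median of 0.01 over all genes tested. Of the 32 tested mitochondrial genes, 14 were called lower and 0 higher, where called means a change of at least 2-fold whose p from edgeR's quasi-likelihood test, adjusted over all genes by Benjamini and Hochberg, was at most 0.05. Over all 15634 genes tested 5% were called, and 3.56% were called lower. The 14 were 3 of the 13 protein genes (ATP8, ND2 and ND3) and 11 of the 19 others. An unadjusted p under 0.05 was found for 25 of the 32, against 33.8% of all genes tested.

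ATP8 was at 272 CPM in Sow unnumbered, 353 in Sow 2 and 327 in Sow 3, and at 114, 78.1 and 126 CPM in M + E2 1 to 3. Its log2 fold change was −1.56 ± 0.36 (SE, edgeR adjusted p = 0.0381). ND3 was at 1593, 2104 and 1570 CPM in Sow unnumbered, Sow 2 and Sow 3, and at 760, 582 and 731 in M + E2. No M + E2 library reached a Sow library for either gene. The log2 fold change of ND3, which lies at positions 10653 to 10998, was −1.26 ± 0.31 (edgeR adjusted p = 0.0402). ND2 (5087 to 6128) was at 3163, 3866 and 3346 CPM in Sow and at 1679, 1358 and 1511 in M + E2, a log2 fold change of −1.17 ± 0.32 (edgeR adjusted p = 0.0468). The other complex I genes had log2 fold changes of −0.98 (ND1), −0.76 (ND4), −0.61 (ND4L), −0.94 (ND5) and −0.97 (ND6), none of them called.

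COX1, the most abundant protein gene in reads, was at 24648, 28842 and 23319 CPM in Sow unnumbered, Sow 2 and Sow 3, and at 16103, 14540 and 12896 CPM in M + E2. The groups did not overlap, and the log2 fold change was −0.79 ± 0.38 (edgeR adjusted p = 0.16). COX2 (−1.08 ± 0.32, edgeR adjusted p = 0.0519) and COX3 (−1.06 ± 0.35, edgeR adjusted p = 0.0650) lay beyond 2-fold but missed the adjusted p. CYTB (−0.96) and ATP6 (−0.93) were neither beyond 2-fold nor past the adjusted p. In 13 of 13 protein genes, and in 27 of the 32 tested mitochondrial genes, every M + E2 library was below both Sow libraries, which held for 28.6% of all genes tested.

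**Figure D3:**
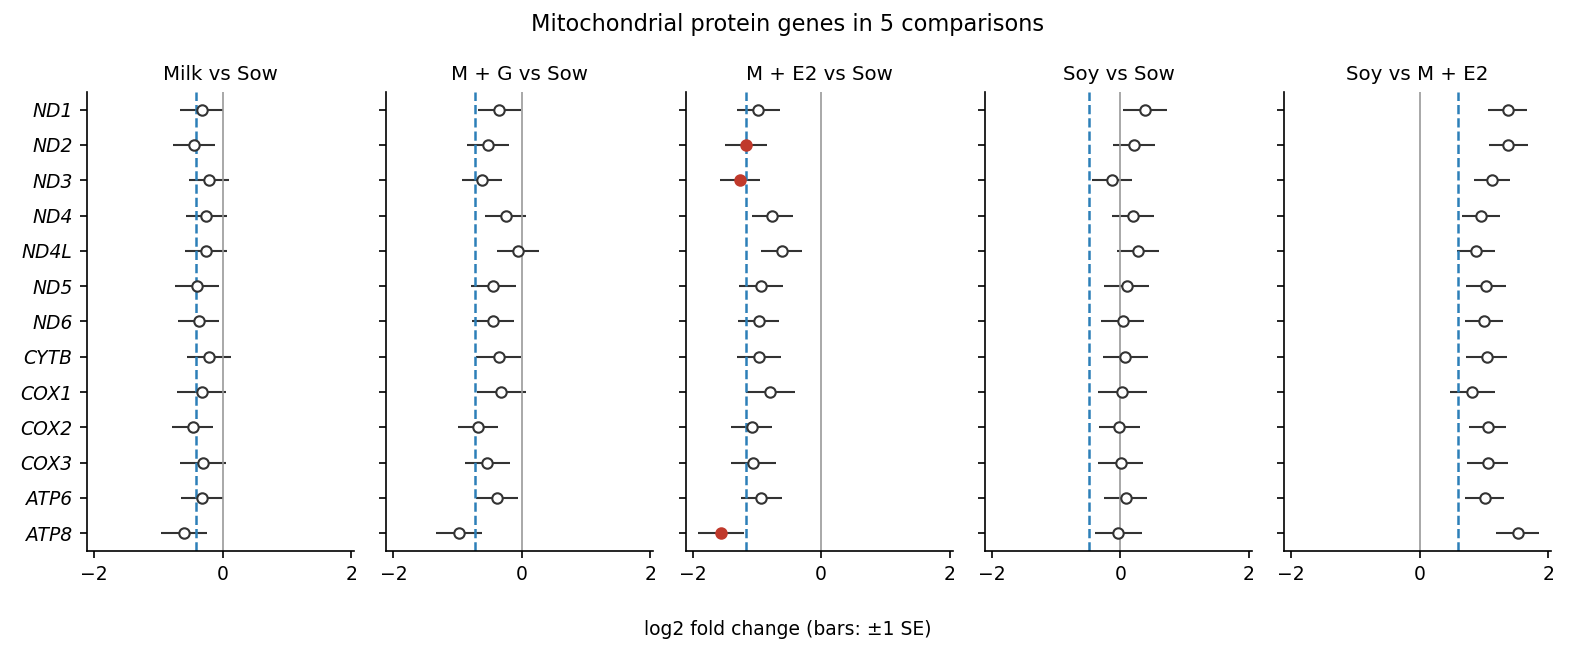
Log2 fold change (horizontal axis, bars ±1 SE, edgeR) of the 13 mitochondrial protein genes in 5 comparisons. Filled points are called genes, the grey line marks no change, and the dashed line is the median of 63 nuclear oxidative phosphorylation genes. Called genes (ATP8, ND2, ND3) stand in M + E2 vs Sow, and in Soy vs Sow the protein genes lie near 0 while the dashed line is at −0.49.

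The libraries were made from messenger RNA and read over 36 bases, and RefSeq transfer RNA genes are 59 to 75 bases long. Whether reads on the RNA genes came from mature RNAs or from longer transcripts was not tested. Among the genes without a symbol, ENSSSCG00000018063 was the most abundant in reads, at 16798, 23626 and 16607 CPM in Sow unnumbered, Sow 2 and Sow 3, and at 7226, 7292 and 6773 CPM in M + E2. Its log2 fold change was −1.30 ± 0.36 (edgeR adjusted p = 0.0470). ENSSSCG00000018061, the next in abundance, did not follow it, with 752, 1189 and 915 CPM in Sow and 1006, 1489 and 640 CPM in M + E2 and a log2 fold change of 0.26 ± 0.39 (edgeR adjusted p = 0.662). The M + E2 values of that gene spanned those of Sow. The reads on ENSSSCG00000018063 per read on ENSSSCG00000018061 were 18.2 to 22.4 in Sow, 12.0 to 26.1 in Milk, 10.7 to 12.6 in Soy, 10.6 to 21.2 in M + G and 4.90 to 10.6 in M + E2.

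ENSSSCG00000018076, the third in abundance, was at 440, 905 and 627 CPM in Sow and at 191, 122 and 152 CPM in M + E2 (log2 fold change −1.84 ± 0.40, edgeR adjusted p = 0.0374). ENSSSCG00000018096 (MT-TP) was at 500, 651 and 447 CPM in Sow and at 161, 135 and 69.2 CPM in M + E2 (−2.02 ± 0.37, edgeR adjusted p = 0.0343). For both genes all M + E2 libraries were below all Sow libraries. The change with the smallest p of the 32 was that of ENSSSCG00000018071, with 100, 109 and 150 reads in Sow unnumbered, Sow 2 and Sow 3 and 10, 11 and 18 reads in M + E2 (−3.35 ± 0.40, edgeR adjusted p = 0.00438). It was 1 of a run of genes with consecutive identifiers, from ENSSSCG00000018070 to ENSSSCG00000018074, that were all called lower. Their log2 fold changes were −2.42, −3.35, −2.96, −2.38 and −1.99 in that order, and their identifiers stand between those of ND2 and COX1. The remaining called genes were ENSSSCG00000018064 (−2.26), ENSSSCG00000018079 (−1.51) and ENSSSCG00000018093 (−1.53). ENSSSCG00000018067 (0.63 ± 0.57) and ENSSSCG00000018061 were the 2 of 32 with an estimate above 0.

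Set against the messenger RNAs of the same genome, the 24 genes without a symbol together did not stand apart in M + E2. They had 238 to 283 reads per 1000 reads on the protein genes in Sow, 156 to 322 in Milk, 150 to 193 in Soy, 145 to 222 in M + G and 181 to 220 in M + E2. M + E2 was below Sow, within the range of Milk and M + G, and overlapped Soy. ENSSSCG00000018061 and ENSSSCG00000018063 carry most of these reads. Without them, a split made after their values were seen, the other 22 together had 13.7 to 18.6 reads per 1000 reads on the protein genes in Sow, 13.3 to 21.4 in Milk, 13.7 to 16.5 in Soy, 8.18 to 11.5 in M + G and 6.94 to 8.45 in M + E2. For these 22 genes summed, all M + E2 libraries were below all Sow, Milk and Soy libraries in this ratio, while M + G overlapped M + E2. Most of the summed reads fell on ENSSSCG00000018076 and ENSSSCG00000018096, with 61315 and 35566 reads over the 15 libraries. The next, ENSSSCG00000018093, had 4748, so the sum says little of the other genes. Both ratios were computed within each library and do not depend on the scaling between libraries.

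**Figure D4:**
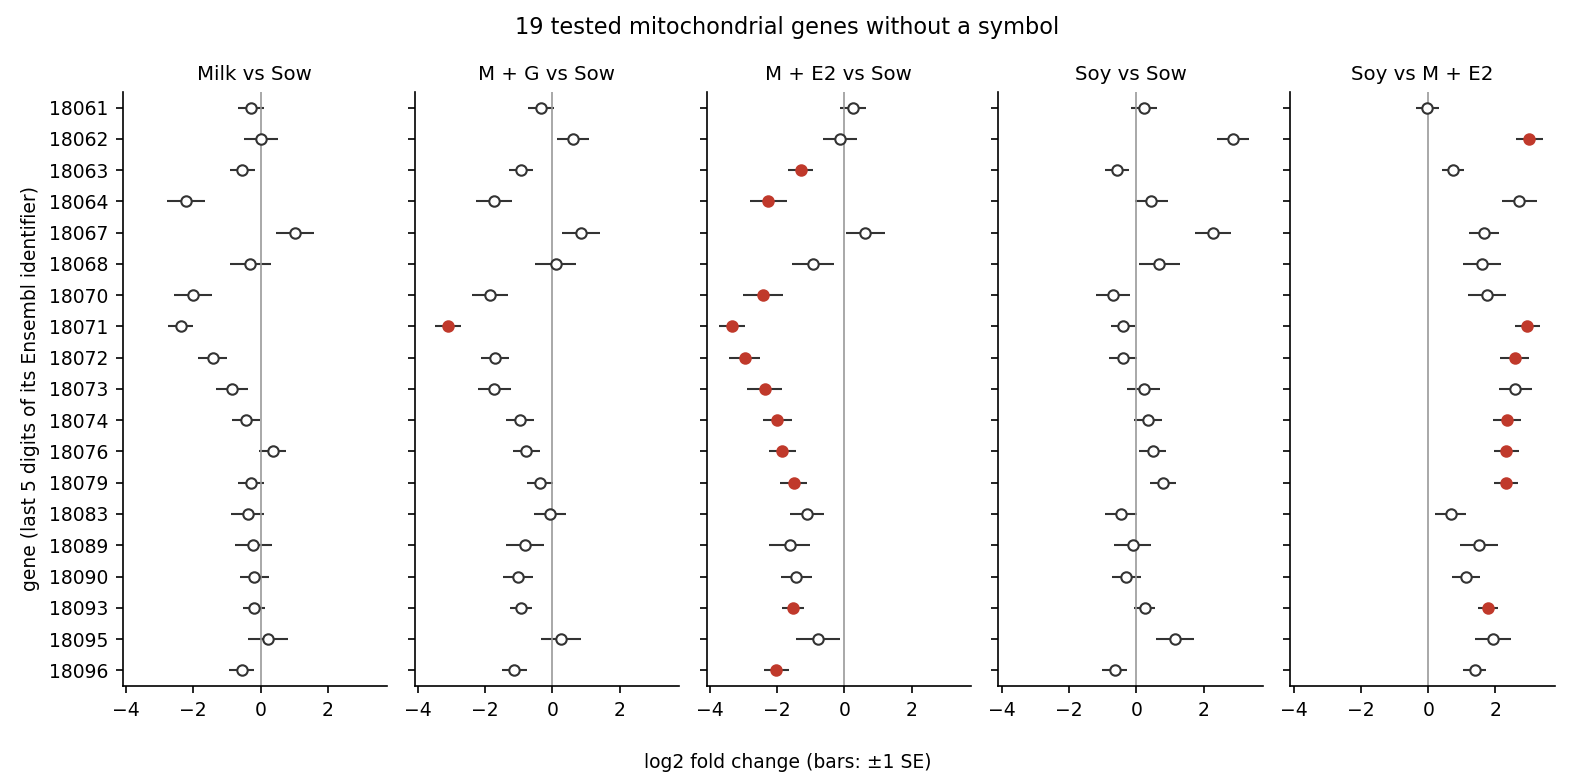
Log2 fold change (horizontal axis, bars ±1 SE, edgeR) of the 19 tested mitochondrial genes without a symbol in 5 comparisons. Filled points are called genes, and identifiers are shortened to their last digits. In M + E2 vs Sow 11 points are filled, all below 0, and in Soy vs M + E2 7 are filled, all above 0.

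Of 63 nuclear oxidative phosphorylation genes, 28 were called lower in M + E2 than in Sow and 0 higher, against 3.56% of all genes tested called lower, with a median log2 fold change of −1.17. They included the complex I subunits NDUFA6 (−1.26, edgeR adjusted p = 0.0269), NDUFB11 (−1.74, 0.0277) and NDUFB4 (−1.26, 0.0305). Of 30 tested genes for the replication, transcription and RNA processing of the mitochondrial genome, 5 were called lower and 0 higher (median −0.61), among them FASTKD2 (−1.52), PNPT1 (−1.24) and SLIRP (−1.68), which act in the stability or decay of mitochondrial RNAs, and TEFM (−1.64), the elongation factor of mitochondrial transcription. In this list 10 of the 30 had estimates above 0, up to 0.90, so the list did not move one way. Every M + E2 library was above both Sow libraries in 7 of the 30 and below both in 19. Over all 15634 genes tested these counts were 5259 and 4479. Of 9 genes for general mitochondrial proteins, 2 were called lower, CYCS, the electron carrier cytochrome c (−1.39), and ENSSSCG00000000097 (−1.22), which the reference names TOMM22, a receptor for imported proteins. Markers of cell types moved with this comparison: the 5 Leydig cell genes summed to 13048 to 13970 CPM in M + E2 and 19304 to 19974 in Sow, and the 7 Sertoli cell genes to 2926 to 3039 CPM in M + E2 and 1674 to 2095 in Sow. Of the 7 Sertoli cell genes 5 had estimates above 0 and 2 below, with 0 called. Their sum was mostly AMH and INHA (up to 1274 and 1489 CPM over the 15 libraries), while CLDN11, the next, reached 345 CPM. The 4 endothelial genes summed to 537 to 712 CPM in M + E2 and 213 to 355 in Sow, with 4 of 4 estimates above 0. The 4 germ cell genes summed to 202 to 257 CPM in M + E2 and 138 to 158 in Sow, although 2 of the 3 tested had estimates below 0. That sum was mostly KIT (75.7 to 240 CPM over the 15 libraries), as no other gene of the list passed 19.1 CPM. Of the 4 erythroid genes 1 was called higher, against 225 of all 15634 genes tested, and 2 had estimates below 0. The part of these markers in the result was not tested. The number of calls rested on single libraries, over all genes as well as over the mitochondrial ones. Without any 1 of the M + E2 libraries 1 mitochondrial gene was called, ENSSSCG00000018071, of 6 called among all genes tested. When Sow 2 replaced Sow unnumbered 24 were called, with 18.4% of all genes tested, and when it replaced Sow 3 21 were called, with 21.3%.

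The comparison of M + G with Sow asks the same of genistein. Here 1 of the 32 genes, ENSSSCG00000018071, was called (lower), against 0.0576% of all genes tested. It had 20, 16 and 12 reads in M + G 1 to 3, below the 100 to 150 of Sow, and a log2 fold change of −3.12 ± 0.39 (edgeR adjusted p = 0.0094). The call was lost without M + G 2 or without M + G 3, with the highest adjusted p at 0.113. With Sow 2 in place of Sow unnumbered 7 mitochondrial genes were called and with it in place of Sow 3 8, but the share called over all genes tested rose as well, to 8.32% and 13%. The Sow libraries are those of the comparison above. Of the 32, 11 had an unadjusted p under 0.05, against 23.6% of all genes tested. The protein genes had a median log2 fold change of −0.44, which was −0.70 without M + G 1 and −0.29 without M + G 2, and 0 calls, and 0 to 1 under the alternatives. ATP8 was at 231, 109 and 127 CPM in M + G 1 to 3, with −0.98 ± 0.36 (edgeR adjusted p = 0.15), and was the only protein gene with an unadjusted p under 0.05. M + G 1 was the highest M + G library for all 13 protein genes. Nuclear oxidative phosphorylation genes had a median of −0.73 in this comparison, with 0 of 63 called. All 4 endothelial marker genes were higher in every M + G library than in both Sow libraries, as were 4298 of all 15634 genes tested. The 4 peritubular myoid and 4 erythroid genes all had estimates above 0 (medians 1.39 and 1.71). Of the Leydig cell genes 4 of 5, and of the germ cell genes 3 of 3, had estimates below 0. The part of all these markers in the result was not tested.

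The comparison of Milk with Sow asks what the cow's milk formula alone changed. No mitochondrial gene was called, against 0.0192% of all genes tested, and 4 of 32 had an unadjusted p under 0.05, against 12.1% of all genes. edgeR's exact test and DESeq2's Wald test each called 1 mitochondrial gene, with 0.124% and 0.205% of all genes called, as did the edgeR test with Sow 2 in place of Sow unnumbered, with 0.051%. The protein genes had a median log2 fold change of −0.33, from −0.60 (ATP8) to −0.21 (CYTB), and 2 of 13 did not overlap between groups, where 15.3% of all genes tested were lower without overlap. That median was −0.61 without Milk 1 and −0.12 without Milk 2, where 2 of the 13 estimates were above 0, so its size rested on single libraries. The Milk libraries were the most spread, with COX1 at 26271, 15021 and 17645 CPM in Milk 1 to 3, so that Milk 1 was above both tested Sow libraries and Milk 2 within the M + E2 range. ENSSSCG00000018071 had 28, 28 and 14 reads in Milk (−2.38 ± 0.38, edgeR adjusted p = 0.0727), which is below every Sow and Soy library. The 4 endothelial marker genes summed to 411 to 978 CPM in Milk against 213 to 355 in Sow, and the 4 peritubular myoid genes to 561 to 2225 CPM against 175 to 402. Each of these 8 genes was higher in every Milk library than in both tested Sow libraries, as were 2460 of all 15634 genes tested. The part of these markers in the result was not tested.

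In Soy against Sow, which asks what the soy formula changed, the protein genes were close to no difference. Their median log2 fold change was 0.08, from −0.13 (ND3) to 0.39 (ND1), with standard errors of 0.31 to 0.39. Of the 13, 10 had an estimate above 0, which became 5 with Sow 2 kept and 4 without Soy 2, so no direction can be given. No mitochondrial gene was called, against 0.0128% of all genes tested, and 2 of 32 had an unadjusted p under 0.05, against 15% of all genes. edgeR's exact test and DESeq2's Wald test each called 1 mitochondrial gene, with 0.367% and 0.211% of all genes called. The nuclear oxidative phosphorylation genes had a median of −0.49 in the same comparison, with 62 of 63 below 0 and 0 called. The reads on the mitochondrial protein genes per read on the 63 nuclear genes were 7.09, 11.67 and 10.96 in Soy unnumbered, Soy 2 and Soy 3, and 5.82, 4.52 and 6.51 in Sow unnumbered, Sow 2 and Sow 3. They were 4.53 to 8.57 in Milk, 6.30 to 8.75 in M + E2 and 5.89 to 9.30 in M + G. All Soy libraries were thus above all Sow libraries in this ratio, and Soy overlapped each of the other groups. Against Sow, 4 of 4 peritubular myoid, endothelial and erythroid marker genes each had estimates above 0 (medians 2.05, 0.88 and 1.02). In contrast, 6 of 7 Sertoli cell and 3 of 3 T cell genes had estimates below 0. No marker was called, and their part in the result was not tested.

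By its reads, ENSSSCG00000018062 (MT-TV, the transfer RNA for valine) stood out in Soy, and whether they came from the mature RNA was not tested. It had 86, 108 and 104 reads in Soy unnumbered, Soy 2 and Soy 3, and 8, 16 and 17 reads in Sow unnumbered, Sow 2 and Sow 3. It had 21, 6 and 9 reads in Milk 1 to 3, 10, 14 and 12 in M + E2, and 20, 25 and 20 in M + G. Every Soy library was above every library of the other groups, as in 15 of the 15634 genes tested (0.0959%), a pattern noticed after its values were seen. It was 7.35-fold of Sow (log2 fold change 2.88 ± 0.47, edgeR adjusted p = 0.119) and 7.29-fold of Milk (2.87 ± 0.40, edgeR adjusted p = 0.098), neither of them called here. The study, with edgeR's exact test, listed this gene as higher in Soy than in Sow and reported it as upregulated relative to milk formula. Against M + E2 it was 8.03-fold and called (3.01 ± 0.40, edgeR adjusted p = 0.0299). Of the neighbouring identifiers, ENSSSCG00000018061 had a log2 fold change of −0.03 ± 0.34 in Soy against M + E2, with overlapping groups. ENSSSCG00000018063 was higher in every Soy library than in every M + E2 library (0.73 ± 0.33, edgeR adjusted p = 0.374). The difference between these changes was not tested.

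**Figure D5:**
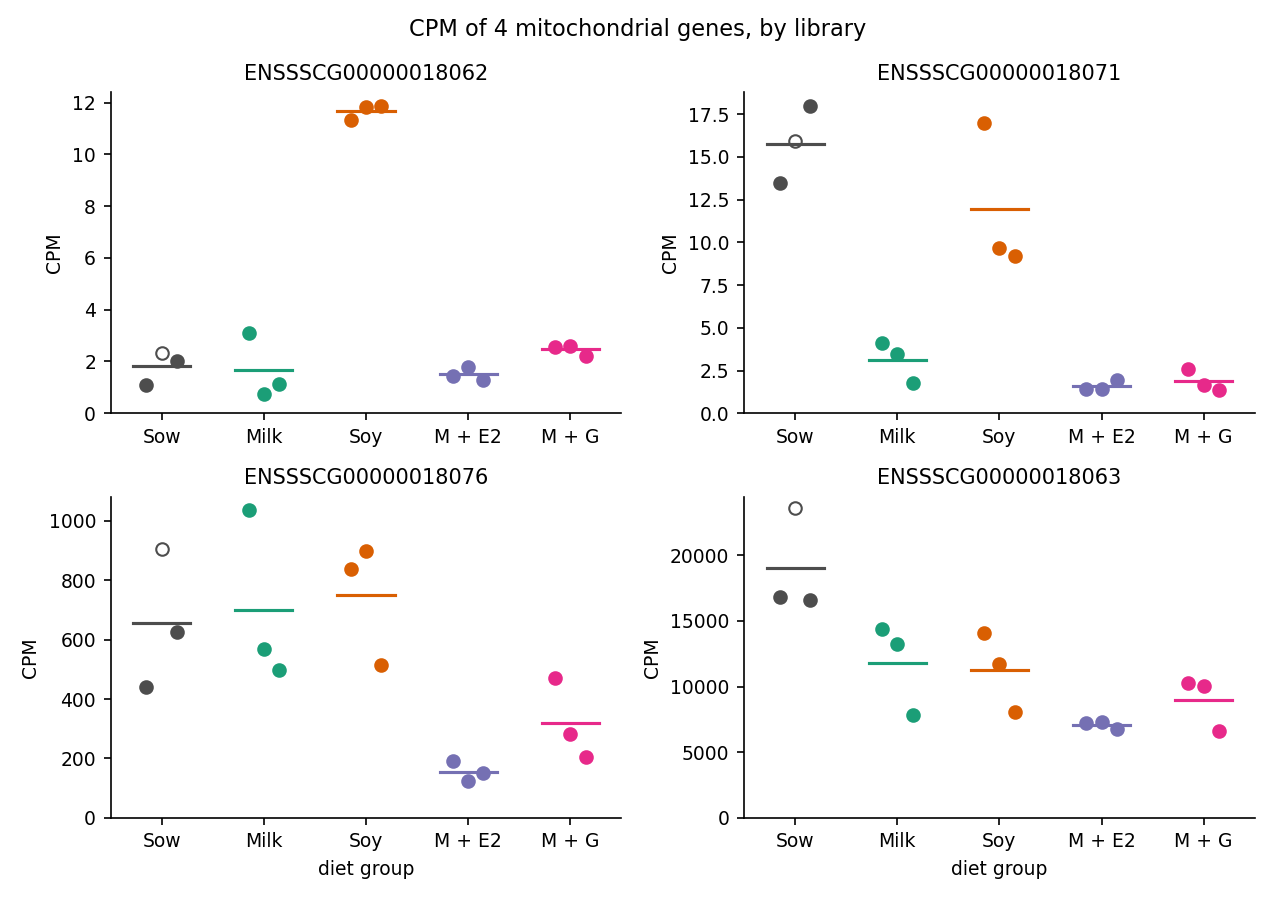
CPM (vertical axis, from 0) of 4 mitochondrial genes in each library by diet group. Points are libraries, the open point is Sow 2, and lines are means of 3 libraries. ENSSSCG00000018062 is at 11.3 to 11.9 CPM in Soy and at most 3.10 elsewhere, and ENSSSCG00000018071 is high in both Sow and Soy.

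The 2 formulas without additions were compared directly in Soy against Milk. No mitochondrial gene was called (0% of all genes tested), and 10 of 32 had an unadjusted p under 0.05, against 2.44% of all genes. The protein genes were all above 0, with a median log2 fold change of 0.45 that was 0.69 without Milk 1 and 0.23 without Milk 2 (12 of 13 above 0), led by ND1 (0.72 ± 0.30, edgeR adjusted p = 0.999) and ND2 (0.66 ± 0.30, edgeR adjusted p = 0.999). In 6 of the 32 genes, none of them a protein gene, every Soy library was above every Milk library, against 1.95% of all genes tested. edgeR's exact test and DESeq2's Wald test each called 3 mitochondrial genes, of 5 and 6 called among all genes, and without Milk 1 the edgeR test called 1, the only gene called. Nuclear oxidative phosphorylation genes had a median of −0.14. Of the genes without a symbol, ENSSSCG00000018064 had 2.67 ± 0.52 and ENSSSCG00000018071 1.97 ± 0.35, with edgeR adjusted p of 0.731 and 0.596.

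Against Milk, the diet that shares its formula, M + E2 had no called mitochondrial gene (0% of all genes tested). Of the 32, 16 had an unadjusted p under 0.05, against 17.7% of all genes tested. All 13 protein genes had estimates below 0 (median −0.61), from −1.05 ± 0.28 (ND3, edgeR adjusted p = 0.186) to −0.35 (ND4L). The median was −0.34 without Milk 1 and −0.85 without Milk 2, with all 13 below 0 in both. ENSSSCG00000018076 had the smallest p of these genes, at 1036, 570 and 497 CPM in Milk 1 to 3 and 191, 122 and 152 in M + E2 (−2.21 ± 0.37, edgeR adjusted p = 0.174). In 14 of 32 genes every M + E2 library was below every Milk library, which held for 7.77% of all genes tested. Without Milk 3, 9 mitochondrial genes were called with 8.04% of all genes tested. edgeR's exact test called 3, with 0.636% of all genes, and DESeq2's Wald test 6, with 0.78%. The 7 Sertoli cell genes summed to 1251 to 2156 CPM in Milk, below the 2926 to 3039 of M + E2. The 4 peritubular myoid genes all had estimates below 0 (median −1.31), as had 4 of 5 Leydig cell and 4 of 5 macrophage genes. No marker was called, and the part of these markers in the result was not tested.

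M + G against Milk, the test of genistein within 1 formula, gave 0 called genes (0% of all genes tested), and 2 of 32 had an unadjusted p under 0.05, against 2.6% of all genes tested. edgeR's exact test and DESeq2's Wald test called 0 as well. In 2 genes every M + G library was below every Milk library, against 2.14% of all genes tested. The protein genes had a median log2 fold change of −0.08, from −0.41 (ND3) to 0.20 (ND4L). Of the 13, 10 were below 0, but this turned with single libraries: 2 were below 0 without Milk 1 (median 0.20), 5 without M + G 2 or without M + G 3, and 13 without Milk 2 or without M + G 1 (medians −0.30 and −0.33). No direction can therefore be given. ENSSSCG00000018076 was at 471, 283 and 204 CPM in M + G 1 to 3, below every Milk library (−1.13 ± 0.36, edgeR adjusted p = 0.94), and ENSSSCG00000018093 had −0.73 ± 0.29 (edgeR adjusted p = 0.94).

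Soy against M + E2 sets soy formula beside cow's milk formula with estradiol, so base formula and estradiol differ together and cannot be told apart. Here 7 of the 32 genes were called, all higher in Soy, where 0.122% of all genes tested (19 genes) were called higher. They were ENSSSCG00000018062, ENSSSCG00000018071, ENSSSCG00000018072, ENSSSCG00000018074, ENSSSCG00000018076, ENSSSCG00000018079 and ENSSSCG00000018093. ENSSSCG00000018071 had 129, 88 and 81 reads in Soy unnumbered, Soy 2 and Soy 3 against 10, 11 and 18 in M + E2 (2.94 ± 0.38, edgeR adjusted p = 0.0299). No protein gene was called, although all 13 were above 0 with a median of 1.04, from 0.82 (COX1) to 1.52 (ATP8). An unadjusted p under 0.05 was found for 30 of 32, against 13% of all genes tested. In 28 of 32 genes, and in 13 of 13 protein genes, every Soy library was above every M + E2 library, which held for 7.78% of all genes tested. Nuclear oxidative phosphorylation genes had a median of 0.60, with 1 of 63 called (NDUFA6). Leydig and Sertoli cell markers differed here too, with 18133 to 24803 CPM in Soy against 13048 to 13970 in M + E2 for the first and 1297 to 1971 against 2926 to 3039 for the second, and their part in the result was not tested. The calls rested on single libraries: without Soy 2, or without any 1 of the M + E2 libraries, 0 genes were called, mitochondrial or other. Without Soy unnumbered 1 mitochondrial gene was called of 3 among all genes, and without TMM scaling 4 of 15. The median of the protein genes stayed between 0.91 and 1.17 in the fits without 1 library.

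Across all 5 diets together, the edgeR test of any difference between groups called 2 mitochondrial genes, ENSSSCG00000018071 (adjusted p = 0.00276) and ENSSSCG00000018062 (adjusted p = 0.00825), of 10 genes called among all tested (0.064%). This count was 10 without Milk 3, 4 with Sow 2 in place of Sow unnumbered and 1 without Soy 2, when 1042, 26 and 4 genes were called among all tested. Of the protein genes, ATP8 had the smallest adjusted p, 0.194. Ordered by library, 4 genes (ENSSSCG00000018064, ENSSSCG00000018070, ENSSSCG00000018071 and ENSSSCG00000018072) were higher in every Sow and Soy library than in every Milk, M + E2 and M + G library, as were 14 genes of all tested (0.0895%), a pattern likewise noticed after the values were seen. It sets the 3 diets on cow's milk formula apart from sow milk and soy formula. In 2 of them counts were low: ENSSSCG00000018064 had 3 to 13 reads in each library of the 3 lower diets, and ENSSSCG00000018070 had 1 to 7. In 6 genes every M + E2 library was below all others (2.26% of all genes tested), namely ND2, ND3, COX3, ENSSSCG00000018076, ENSSSCG00000018079 and ENSSSCG00000018096.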

How the data were processed

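Testis RNA was sequenced as 36-base single-end reads on messenger RNA libraries, 1 per piglet. After trimming, the authors used the CLC Genomics Workbench to map reads to a porcine gene library and then to the Ensembl pig genome 11.1, and deposited counts of reads per gene without normalization. Use of strand and of reads with several matches is not given in the sources used here. Groups came from the labels, with Sow 2 left out of tests as in the study. The number of columns left unused was 0.

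The analysis used R 4.3.3, edgeR 4.0.16 and DESeq2 1.42.0. Genes passing filterByExpr (minimum count 10) numbered 15634. All 5 groups were fitted together with TMM factors, the quasi-likelihood F test of edgeR compared them, p-values were adjusted by Benjamini-Hochberg over all genes tested, and SE is the log2 fold change divided by the square root of F. The step was tested on simulated data. Called means an adjusted p of 0.05 or less and at least a 2-fold change. Levels are CPM over 15 libraries. A count of 0 allows up to 3 reads, and such limits cover counting error only. Libraries came from separate piglets, and comparisons with a common group share its libraries.

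Named genes are the 13 protein genes, the unnamed genes called in any comparison, the 3 most abundant unnamed genes, and at most 4 genes per nuclear list and comparison, and genes with a library order noticed afterwards are named as such. The nuclear lists hold 76 oxidative phosphorylation genes, 32 genes of mitochondrial DNA expression and 10 of mitochondrial mass, of which 63, 31 and 9 were found by symbol. The genes, lists and tests were chosen with earlier results of these data known. Same-numbered Milk and M + G libraries deviated together from their group means (r = 0.233, 0.510 and 0.425 across genes). For Milk and Soy r was −0.479 and 0.207, and for Milk and M + E2 −0.064, −0.094 and −0.339. Differently numbered libraries were not set against each other, so whether the numbers pair piglets is not known. Of 105 pairs of libraries 0 were identical. Alternatives were other normalizations, filters, tests and library sets.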

Additional observations from a re-analysis of the deposited data

How the results depend on the processing

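Counts of called mitochondrial genes depended on the test, the filter and the libraries, and the cause was not tested. No called gene reversed under any alternative: of the values of called genes under alternatives, 224 kept the call and 93 lost it. Leaving out 1 library at a time, with Sow 2 put in its place where a Sow library was left out, gave 1 to 24 called genes in M + E2 vs Sow, 0 to 8 in M + G vs Sow, 0 to 1 in Milk vs Sow, 0 to 9 in M + E2 vs Milk, 0 to 1 in Soy vs Milk, 0 to 10 in Soy vs M + E2 and 1 to 10 over the 5 diets. The counts above 14 in M + E2 vs Sow and above 1 in M + G vs Sow came with Sow 2 put in. With all 15 libraries, M + G vs Sow gave 10 called genes (10.3% of all genes tested), Soy vs Sow 1 (0.0261%), Milk vs Sow 1 (0.0587%) and the test over 5 diets 15 (of 1168 genes called). A fit of only the groups compared gave 5 in M + G vs Sow (5.38% of all genes). Without the filter on low counts there was 1 each in Soy vs Sow, Milk vs Sow, M + E2 vs Milk and Soy vs Milk, and 9 over the 5 diets, where at least 10 counts in every library left 1. Without TMM scaling, Soy vs M + E2 gave 4, and the summed protein genes in M + E2 were 65.5% of Sow, a scaling that moved the median log2 fold change of all genes in M + E2 vs Sow to 0.31 and that of the protein genes to −0.67.

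edgeR's exact test gave 6 called genes in M + G vs Sow, 1 in Soy vs Sow, 1 in Milk vs Sow, 3 in M + E2 vs Milk, 3 in Soy vs Milk and 19 in Soy vs M + E2, where 955, 54, 18, 92, 5 and 203 genes were called among all tested. DESeq2's Wald test gave 3, 1, 1, 6, 3 and 21 in the same order, of 330, 33, 32, 122, 6 and 143 among all, and its likelihood ratio test 21 of 1058 over the 5 diets. With the replicate number as a block, 0 genes were called in M + E2 vs Milk, M + G vs Milk and Soy vs Milk, as without it, also when only Milk and M + G were fitted, an alternative added after seeing the data. Soy vs M + E2 gave 0 under the block, which leaves out Soy unnumbered. With 2 or 3 libraries a group and as few as 1 read per library for some genes without a symbol, a missed call does not show equal levels.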
